A study of Mus musculus with 10 samples.

Results

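The genes described here are 33 enzymes, transporters and regulators of sugar use: 2 glucose transporters, 17 enzymes of glycolysis and lactate formation, 5 genes of gluconeogenic and regulatory enzymes, and 9 genes of glycogen metabolism. They were chosen by name from the 23337 genes of the deposited counts table, and all 33 were found there. Messenger RNA was measured by sequencing of polyadenylated RNA from sorted heart muscle cells (cardiomyocytes) of 10 mice. Of these, 5 were knockouts (Actn2 F/F, with both alleles floxed) and 5 were heterozygotes (Actn2 F/+, with 1 floxed allele). The product of Actn2, alpha-actinin-2, ties actin filaments together at the sarcomere's Z-line, and a floxed allele loses a stretch of the gene where the recombinase Cre is present. All 10 animals, the controls included, were injected on postnatal day 1 with AAV9-cTNT-Cre, a virus in which the cardiac troponin T promoter drives Cre. Collection followed on postnatal day 14. The heterozygotes may thus carry a deleted allele as well, and no group without Cre or without a floxed allele was analysed here, so the contrast is that of 2 floxed alleles against 1.

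Glycolysis splits glucose to pyruvate in a chain of cytosolic reactions and yields ATP without oxygen. Lactate dehydrogenase converts pyruvate and lactate into each other, and glycogen is the branched glucose store from which the muscle cell can refill the chain. The heart of the newborn relies on glycolysis and lactate more than the adult heart, which draws most of its ATP from fatty acids. Many of the steps are encoded by several genes, of which muscle uses a form of its own, such as Slc2a4, Pfkm, Pgam2, Eno3 and Pygm.

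Levels are given in CPM, the usual counts scaled to the library total with TMM factors, so they are relative to all other transcripts of the same library. In such bulk libraries, fewer cells that express a gene and less RNA of it per cell cannot be told apart. A gene was called changed where the p of edgeR's quasi-likelihood test, after Benjamini-Hochberg adjustment across the 11870 tested genes, was below 0.05. Total counts ran from 8086656 to 25237696 per library, and Actn2 itself, the check of the labels, was at 3180.5 ± 358 CPM in the heterozygote and 1217 ± 55.3 CPM in the knockout (SD, n = 5), with every knockout below every heterozygote. The cardiomyocyte markers Myh6, Tnnt2, Actc1, Ryr2, Pln, Myl2, Myl3 and Tnni3 together gave 98680 to 122536 CPM in the heterozygote and 93811 to 118712 CPM in the knockout, with 1 of the 8 called lower (Tnni3). The globin genes Hba-a1, Hba-a2, Hbb-b1 and Hbb-b2 had 0 reads in every library. Reads that fit several places may have been left out, and whether that made these values 0 was not tested. Of 6 skeletal-muscle markers, Myh1, Myh2, Myh4, Tnnt3 and Mylpf were at or near 0 in both groups. The other of these, Ckm, the muscle creatine kinase that the heart also expresses, fell from 4274 ± 826 to 2145 ± 115 CPM without overlap of the groups (SD, n = 5, knockout over heterozygote 0.502, edgeR adjusted p 4.12e-05).

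Of the 33 genes, 32 passed the filter on low counts, and 12 of them were called, 11 lower and 1 higher in the knockout. The 11 lower genes were Slc2a4, Aldoa, Pgam2, Eno3, Ldhb, Fbp2, Pfkfb1, Gys1, Phkg1, Ugp2 and Pgm2, and the higher gene was Gyg. Over all tested genes 2241 (18.9%) were called, with 8.64% lower and 10.2% higher, against 37.5% called among the 32. With total-count scaling the calls over all genes were 68.9% higher, against 54.3% with TMM, and those among the 32 were 10 lower and 2 higher. Abundant genes were called more often: of the 1681 genes that averaged 100 CPM or more, 34.5% were called, 333 lower and 247 higher. Among the 21 sugar-metabolism genes at that level 9 were called (42.9%), 8 lower and 1 higher. The median log2 fold change of the 32 genes was -0.25, against 0.00 over all tested genes and -0.04 over the abundant genes. Values were negative in 26 of the 32, in 5904 of the 11870 tested genes and in 935 of the 1681 abundant genes. By role, the called genes were 1 of 2 glucose transporters, 4 of 16 tested glycolytic genes, 2 of 5 gluconeogenic and regulatory genes and 5 of 9 glycogen genes, with medians of -0.24, -0.25, -0.23 and -0.26. The groups did not overlap in 6 genes that were lower (Slc2a4, Aldoa, Eno3, Ldhb, Fbp2 and Phkg1) and in 1 that was higher (Gyg). Over all genes they did not overlap in 14.7%, with 6.32% lower and 8.41% higher. Of the 1681 genes that averaged 100 CPM or more, the groups did not overlap in 270 that were lower and 229 that were higher. Of the 21 sugar-metabolism genes at that level, they did not overlap in 4 that were lower and 1 that was higher.

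**Figure D1:**
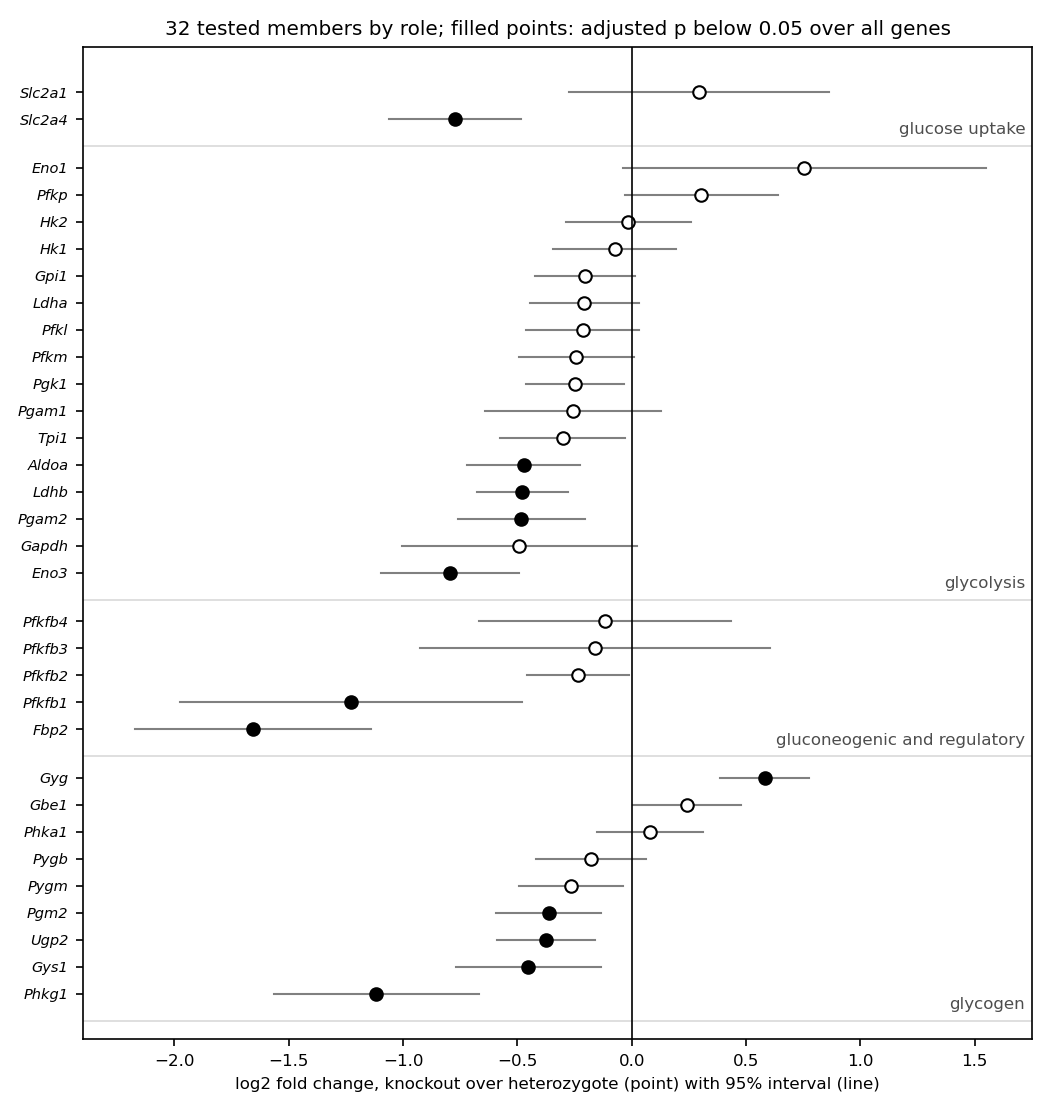
Log2 fold change of the knockout over the heterozygote (x axis) for the 32 tested genes, grouped by role (y axis). Points are estimates, lines are 95% intervals, and filled points mark the 12 called genes, of which Gyg alone lies to the right of 0.

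Because reads per gene grow with transcript length, levels of different genes were compared as CPM per kilobase of exons. In the heterozygote the highest levels on this scale belonged to Eno3 (2167 CPM per kilobase) and Aldoa (2139.5). Pgam2 (1239), Ldhb (1193) and Ldha (1005) followed, each overlapping with the next between animals. Eno3 and Aldoa overlapped between animals, whereas Aldoa in its lowest heterozygote exceeded Pgam2 in its highest. Of the 5 most abundant genes on this scale, 4 were called lower, the exception being Ldha. Gapdh, not called, came next at 793 CPM per kilobase. Since 82.5% of its 50-base windows recur in other transcripts, its reads may be undercounted, and the first 5 are uncertain. In the knockout the order of the first 2 was turned, with Aldoa at 1542 and Eno3 at 1249 CPM per kilobase. The lowest levels belonged to Aldoc, Pfkfb3, Eno1, Pfkfb4 and Pfkfb1, which lay at 0.283 to 1.28 CPM per kilobase in the heterozygote. The count of Eno1 is uncertain, since 72.2% of the 50-base windows of its transcript also occur in transcripts of other annotated genes.

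**Figure D2:**
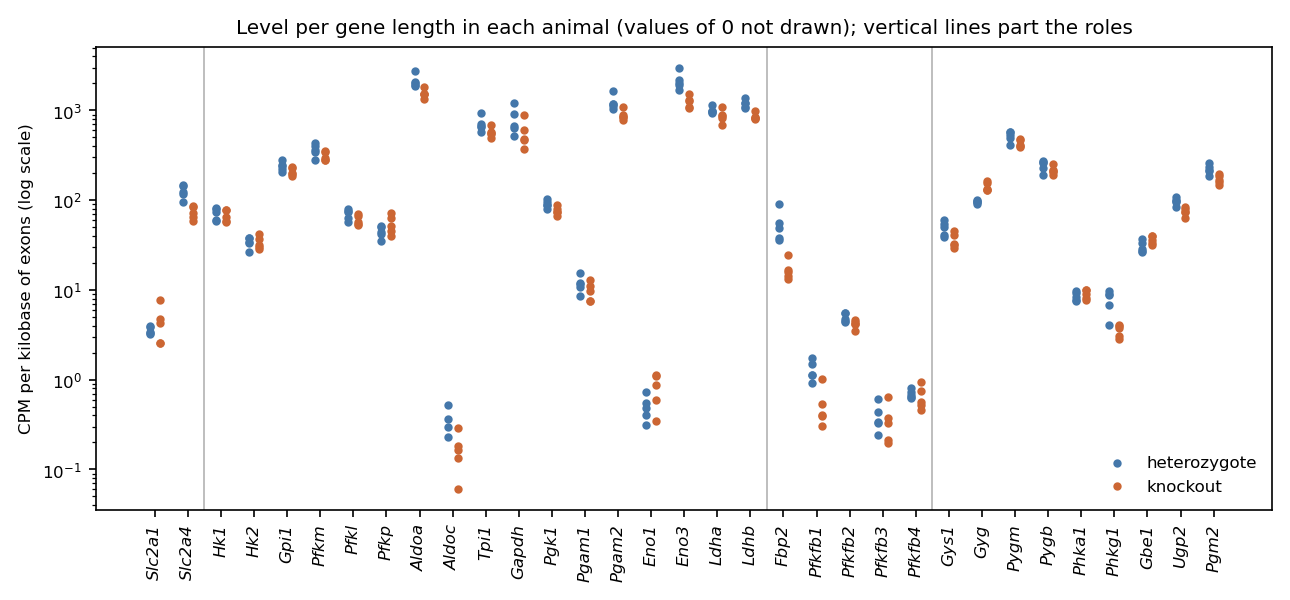
Level of each gene in CPM per kilobase of exons (y axis, log scale) in each of the 5 heterozygotes and 5 knockouts, with the genes in the order of their roles (x axis). The muscle forms Aldoa, Pgam2 and Eno3 lie far above Aldoc, Pgam1 and Eno1 in every animal. Counts of Pgam1 and Eno1 are uncertain, since 41.5% and 72.2% of the 50-base windows of their transcripts recur in other transcripts.

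Glucose enters the cardiomyocyte through the insulin-responsive transporter GLUT4, encoded by Slc2a4, and the basal transporter GLUT1, encoded by Slc2a1. Slc2a4 (chromosome 11, 69942286 to 69948190, minus strand, mm10) was at 403, 413, 351, 269 and 331 CPM (heterozygotes 1 to 5) against 237, 242, 184, 206 and 166 CPM (knockouts 1 to 5). Every knockout lay below every heterozygote, the nearest animals being heterozygote 4 and knockout 2. The level fell to 0.585 of that of the heterozygote, a log2 fold change of -0.77 (SE 0.135; adjusted p 0.00120 in edgeR). Slc2a1 was much lower, at 9.08 ± 0.873 CPM in heterozygotes and 11.3 ± 5.47 CPM in knockouts (SD, n = 5), and was not called (log2 fold change 0.29, edgeR adjusted p 0.485). Its positive value rested on knockout 1, at 19.9 CPM against 6.56 to 12.3 CPM in the other knockouts, and without that animal the log2 fold change was -0.01.

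The first steps of glycolysis trap glucose in the cell and commit it to breakdown. None of their 6 genes passed edgeR's quasi-likelihood test, none had an unadjusted p below 0.05, and none was called by DESeq2. The hexokinases Hk1 and Hk2, which phosphorylate glucose, had log2 fold changes of -0.08 and -0.02, with 95% intervals of -0.34 to 0.19 and -0.29 to 0.26. Both intervals span 0. The sign of Hk2, the muscle hexokinase, turned with library totals as the only scaling and when heterozygote 1 or 2 or knockout 3, 4 or 5 was left out. Gpi1, the isomerase that makes fructose phosphate, was at 688 ± 77.9 CPM in heterozygotes and 597 ± 63.7 CPM in knockouts (SD, n = 5, edgeR adjusted p 0.181). Of the phosphofructokinases, which set the committed step, the muscle form Pfkm was at 1119 ± 180.1 CPM in heterozygotes and 945 ± 104 CPM in knockouts (SD, n = 5, log2 fold change -0.24, edgeR adjusted p 0.169). Without heterozygote 4, the lowest of its group, Pfkm was called lower (-0.32, edgeR adjusted p 0.0474). The liver form Pfkl had a value of -0.21 and the platelet form Pfkp one of 0.30 (edgeR adjusted p 0.217 and 0.197). Pfkp was at 290.5, 256 and 207 CPM in knockouts 1 to 3, above all heterozygotes, and within the heterozygote range in knockouts 4 and 5.

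Aldolase cuts the phosphorylated hexose into trioses, and Aldoa, its muscle form, was the most abundant transcript of the 33 in CPM. Aldoa (chromosome 7, 126795234 to 126800447, minus strand) was at 3719.8, 5051, 3827, 3376 and 3538 CPM (heterozygotes 1 to 5) against 3322, 2764, 2748, 2765 and 2465 CPM (knockouts 1 to 5). The groups did not overlap, although knockout 1 came close to heterozygote 4. Expressed as a log2 fold change, the fall was -0.47 (SE 0.115; adjusted p 0.0106 in edgeR). Aldoc, the brain form, had 0 to 8 reads per library and was not tested, and in heterozygote 1, where it had 0, the depth allows up to 0.119 CPM (3 counts of the total). The triose steps behind it did not pass the test: Tpi1, the triose isomerase, had a log2 fold change of -0.30 (edgeR adjusted p 0.115), and Pgk1, the first ATP-yielding kinase, one of -0.25 (edgeR adjusted p 0.0987). Gapdh, the dehydrogenase between them, was widely spread, at 646 to 1474 CPM in the heterozygote and 453 to 1101 CPM in the knockout. It was not called (log2 fold change -0.49, edgeR adjusted p 0.173), but without knockout 1 it was (-0.72, edgeR adjusted p 0.0386), and without heterozygote 2 the log2 fold change shrank to -0.29 (edgeR adjusted p 0.421). Counts of Gapdh and Pgk1 are uncertain, since 82.5% and 68.0% of the 50-base windows of their transcripts also occur in transcripts of other annotated genes, and reads that fit several places may have been left out.

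At the mutase and enolase steps the muscle forms were called lower, while pyruvate kinase, which makes pyruvate, was not called (listed below as Pkm2). Pgam2, the muscle phosphoglycerate mutase (chromosome 11, 5801637 to 5803796, minus strand), was at 1076, 1510.4, 1005, 950.2 and 1069.7 CPM (heterozygotes 1 to 5) against 989, 758, 801, 759 and 709 CPM (knockouts 1 to 5). Heterozygote 2 stood above the rest, and knockout 1 lay above heterozygote 4, so the groups overlapped by that pair. Pgam2 was called lower all the same, at a log2 fold change of -0.48 (SE 0.130; adjusted p 0.0181 in edgeR). Eno3, the beta-enolase of striated muscle (chromosome 11, 70657213 to 70662513, plus strand), was at 3325, 4511, 3090.1, 2593 and 2939 CPM (heterozygotes 1 to 5) against 2289.5, 1981, 1624, 1917 and 1675 CPM (knockouts 1 to 5). No knockout reached the lowest heterozygote. Its log2 fold change of -0.79 (SE 0.140; adjusted p 0.00133 in edgeR) was the most negative of the tested glycolytic enzymes. The broadly expressed forms Pgam1 and Eno1 were scarce, at 21.4 ± 4.67 and 0.879 ± 0.276 CPM in the heterozygote (SD, n = 5), and were not called (log2 fold changes -0.26 and 0.75, edgeR adjusted p 0.350 and 0.176). Their counts are uncertain too, as 41.5% of the windows of Pgam1 and 72.2% of those of Eno1 recur in other transcripts, and Eno1 also shares exon bases with Gm5506.

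Lactate dehydrogenase is built from muscle-type subunits of Ldha and heart-type subunits of Ldhb, and only Ldhb passed the test. Ldhb (chromosome 6, 142490249 to 142507943, minus strand) was at 1549, 1792, 1413, 1381 and 1562 CPM (heterozygotes 1 to 5) against 1266, 1062, 1056, 1094 and 1043 CPM (knockouts 1 to 5). The groups did not overlap, and knockout 1 was the highest of its group. Ldhb had a log2 fold change of -0.48 (SE 0.0929; adjusted p 0.00252 in edgeR), which is 0.717 of the heterozygote level. Of its 50-base windows, 27.0% recur in the transcripts of 1 other annotated gene. Ldha was at 1940.3 ± 169 CPM in heterozygotes and 1680.2 ± 276 CPM in knockouts (SD, n = 5), with a log2 fold change of -0.21 (95% interval -0.45 to 0.03, edgeR adjusted p 0.218). Knockout 1 had 2086 CPM of Ldha, above all heterozygotes but heterozygote 2, while knockout 5 had 1319 CPM.

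**Figure D3:**
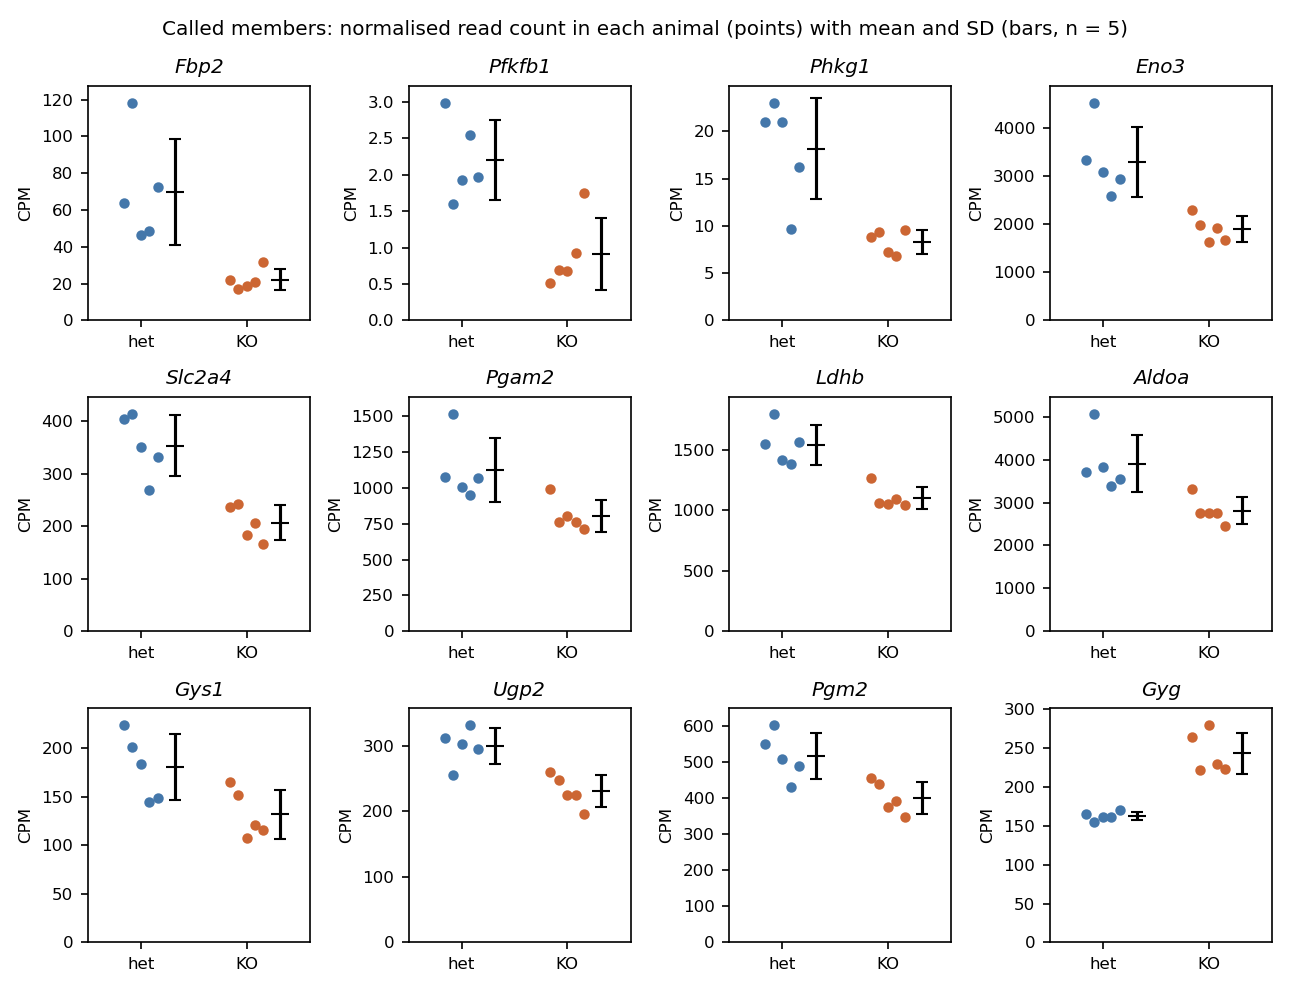
Normalised read count (y axes, CPM, from 0) of the 12 called genes in each heterozygote (het) and knockout (KO) animal, with mean and SD (n = 5). The knockouts lie lower in 11 panels and higher in that of Gyg.

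The promoter of Pgam2 is shown because it holds the MEF2 motif, which only 1 other of the genes searched has. It is given as it stands in RefSeq (GRCm38.p6, chr11:5803747-5804046, minus strand), from 250 bases before the annotated start to 50 bases after it. The capitals mark the match, whose first base lies 80 bases before the start.
Pgam2 promoter: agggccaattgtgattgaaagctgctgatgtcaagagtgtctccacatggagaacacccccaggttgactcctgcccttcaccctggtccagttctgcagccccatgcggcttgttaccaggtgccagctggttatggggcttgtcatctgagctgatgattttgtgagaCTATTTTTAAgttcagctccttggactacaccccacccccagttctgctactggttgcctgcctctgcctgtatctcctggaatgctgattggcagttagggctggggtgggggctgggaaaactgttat
Both strands of such 300-base windows were searched for 5 motifs in 32 of the 33 genes (all but Slc2a4) and in all 32851 promoters of the table. For each of the 32, only the window nearest the start used for its counts was taken, while every promoter of the table was counted. The shares over all promoters are thus not shares of genes. The MEF2 motif, bound by factors of muscle genes, was in 2 of the 32 (Pgam2 and Pfkfb1, both called lower) and in 3.19% of all promoters. AAGGTCA, the site of estrogen-related receptors, was in 2 of the 32 (Tpi1 and Pfkfb1) and in 4.72% of all. ACGTG, the core of hypoxia response elements, was in 13 of the 32 and in 19.6% of all, and in 2 of the 10 lower genes searched (Fbp2 and Pgm2). CACGTG, the E-box, holds ACGTG on both strands and was in Pfkm, Ldha, Fbp2 and Gyg, 4 of the 32, against 7.15% of all. GGGCGG, the GC box, was in 18 of the 32 and in 35.7% of all. None of the 5 motifs was in the windows of Aldoa, Eno3, Ldhb and Phkg1, called lower, nor in those of Hk1 and Pfkfb2, not called, and Aldoc, not tested. These are matches of letters in a window, and the window of Pfkfb2 began 13205 bases from the start used for its counts.

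Fbp2, the muscle fructose bisphosphatase that runs the phosphofructokinase step backwards, had the largest fall of the 32 tested genes. Fbp2 (chromosome 13, 62836885 to 62858370, minus strand) was at 64.1, 118, 46.3, 48.6 and 72.4 CPM (heterozygotes 1 to 5) against 21.9, 17.2, 18.7, 20.7 and 31.6 CPM (knockouts 1 to 5). The heterozygotes were widely spread, with heterozygote 2 far above the others, yet no knockout reached the lowest of them. The level fell to 0.317 of that of the heterozygote, a log2 fold change of -1.66 (SE 0.241; adjusted p 0.000289 in edgeR). Its promoter window (GRCm38.p6, chr13:62858351-62858650, minus strand) holds an E-box, in capitals, from 42 bases before the start.
Fbp2 promoter: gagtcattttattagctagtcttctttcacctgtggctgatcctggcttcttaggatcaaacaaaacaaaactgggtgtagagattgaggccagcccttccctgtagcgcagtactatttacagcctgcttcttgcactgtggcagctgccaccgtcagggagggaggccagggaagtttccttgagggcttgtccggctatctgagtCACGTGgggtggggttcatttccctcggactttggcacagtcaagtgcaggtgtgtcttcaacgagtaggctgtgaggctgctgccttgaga
The Pfkfb genes encode bifunctional enzymes that make and remove fructose bisphosphate of the regulatory kind, which activates phosphofructokinase and inhibits fructose bisphosphatase. Pfkfb1, known as the liver and muscle form, was called lower but rested on few reads, at 13 to 71 per heterozygote library and 5 to 31 per knockout library. Pfkfb1 (chromosome X, 150589921 to 150643860, plus strand) was at 2.98, 1.60, 1.92, 2.55 and 1.97 CPM (heterozygotes 1 to 5) against 0.521, 0.687, 0.683, 0.924 and 1.75 CPM (knockouts 1 to 5). Knockout 5 lay within the heterozygote range and the other 4 knockouts below it. Its log2 fold change was -1.23 (SE 0.348; adjusted p 0.0237 in edgeR), and the call was lost when heterozygote 1 or knockout 1, 2 or 3 was left out (edgeR adjusted p 0.0543 to 0.0734). Pfkfb2, the heart form, was at 47.5 ± 5.29 CPM in heterozygotes and 40.2 ± 4.11 CPM in knockouts (SD, n = 5, log2 fold change -0.23, edgeR adjusted p 0.135). Pfkfb3 was at 2.06 ± 0.738 and 1.86 ± 0.943 CPM and Pfkfb4 at 2.34 ± 0.239 and 2.17 ± 0.668 CPM in heterozygote and knockout (SD, n = 5), and neither was called (edgeR adjusted p 0.801 and 0.803).

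Of the 9 glycogen genes, 4 fell and 1 rose, and the change went both ways among enzymes of glycogen synthesis. Gyg, which encodes glycogenin, the protein primer on which a glycogen particle is started, was the gene that rose. Gyg (chromosome 3, 20122084 to 20155096, minus strand) was at 165, 155, 162, 162 and 169.8 CPM (heterozygotes 1 to 5) against 264, 221, 279, 229 and 224 CPM (knockouts 1 to 5). The heterozygotes lay close together and every knockout lay above them. The level was 1.496 times that of the heterozygote, a log2 fold change of 0.58 (SE 0.0909; adjusted p 0.000530 in edgeR). Its promoter window (GRCm38.p6, chr3:20155067-20155366, minus strand) also holds an E-box, in capitals, from 8 bases after the start. Whether the E-box acts on Fbp2 or Gyg was not tested.
Gyg promoter: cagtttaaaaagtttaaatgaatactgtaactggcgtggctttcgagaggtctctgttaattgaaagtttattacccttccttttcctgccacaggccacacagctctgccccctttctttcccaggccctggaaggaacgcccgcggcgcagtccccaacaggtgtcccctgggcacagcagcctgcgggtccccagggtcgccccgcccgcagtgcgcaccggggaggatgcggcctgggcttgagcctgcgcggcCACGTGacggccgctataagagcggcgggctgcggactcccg
Gys1, the muscle glycogen synthase that lengthens the chains (chromosome 7, 45434839 to 45456617, plus strand), was at 224, 202, 184, 145 and 149 CPM (heterozygotes 1 to 5) against 165, 152, 107, 121 and 116 CPM (knockouts 1 to 5). The groups overlapped, since knockouts 1 and 2 lay above heterozygotes 4 and 5. The log2 fold change was -0.45 (SE 0.148; adjusted p 0.0465 in edgeR), and the call was lost when heterozygote 1, 2 or 3 or knockout 3, 4 or 5 was left out (edgeR adjusted p 0.0730 to 0.123). It was also lost with library totals as the only scaling (edgeR adjusted p 0.0647).

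The enzymes that feed glycogen synthase were lower as well. Ugp2 makes UDP-glucose, the sugar donor of glycogen synthase (chromosome 11, 21321141 to 21370879, minus strand), and was at 313, 256, 302, 331 and 296 CPM (heterozygotes 1 to 5) against 260.4, 248, 226, 225 and 196 CPM (knockouts 1 to 5). Heterozygote 2 was the lowest of its group and lay below knockout 1. Ugp2 was called lower with a log2 fold change of -0.38 (SE 0.0996; adjusted p 0.0166 in edgeR). The gene listed as Pgm2 (chromosome 4, 99929451 to 99987294, plus strand), named Pgm1 in the GENCODE annotation, encodes the phosphoglucomutase that links glucose phosphates of glycolysis and glycogen. It was at 552, 603, 511, 433 and 490.2 CPM (heterozygotes 1 to 5) against 456, 439, 376, 392 and 349 CPM (knockouts 1 to 5). Heterozygote 4 lay below knockouts 1 and 2. The log2 fold change was -0.36 (SE 0.107; adjusted p 0.0278 in edgeR), and the call was lost when heterozygote 1 or 2 or knockout 3, 4 or 5 was left out (edgeR adjusted p 0.0589 to 0.0759). Gbe1, the branching enzyme, was at 87.3 ± 12.6 CPM in heterozygotes and 103 ± 10.6 CPM in knockouts (SD, n = 5) and was not called (log2 fold change 0.24, edgeR adjusted p 0.149), except with library totals as the only scaling (edgeR adjusted p 0.0433).

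On the side of glycogen breakdown, the catalytic subunit of the activating kinase was called and the phosphorylases were not. Phkg1, the muscle catalytic subunit of phosphorylase kinase (chromosome 5, 129863435 to 129879083, minus strand), was at 20.96, 22.96, 21.02, 9.66 and 16.2 CPM (heterozygotes 1 to 5) against 8.85, 9.32, 7.22, 6.77 and 9.56 CPM (knockouts 1 to 5). Heterozygote 4 lay far below the other heterozygotes and only just above knockout 5. The log2 fold change was -1.12 (SE 0.210; adjusted p 0.00199 in edgeR), and without heterozygote 4 it was -1.27. Phkg1 shares exon bases with Sumf2, and 25.0% of its windows recur in other transcripts, so reads of these stretches may be missing from its counts. Phka1, the muscle regulatory subunit of the same kinase, was at 51.9 ± 6.20 CPM in heterozygotes and 54.9 ± 6.34 CPM in knockouts (SD, n = 5, log2 fold change 0.08, 95% interval -0.15 to 0.31, edgeR adjusted p 0.668). Pygm, the muscle glycogen phosphorylase, had a log2 fold change of -0.26 and Pygb, the brain form, one of -0.18 (edgeR adjusted p 0.0986 and 0.301). Without heterozygote 4, Pygm was called lower (-0.34, edgeR adjusted p 0.0233).

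Some markers of other cells were lower in the knockout too. The summed level of 10 endothelial markers was 520 to 824 CPM in the heterozygote and 339 to 600 CPM in the knockout. All 10 had negative log2 fold changes, and 2 were called lower (Egfl7 and Cldn5). Macrophage markers summed to 10.1 to 29.9 CPM in the heterozygote and 7.29 to 8.94 CPM in the knockout. Only 5 of these 8 were tested, all with negative log2 fold changes, and 1 was called lower (Csf1r). Smooth muscle and pericyte markers summed to 447 to 674 CPM in the heterozygote and 409 to 563 CPM in the knockout, with negative log2 fold changes in 7 of 8 and 1 called lower (Tagln). Fibroblast markers summed to 330 to 538 CPM in the heterozygote and 318 to 648 CPM in the knockout. With the log2 summed level of endothelial markers as a covariate, 6 of the 12 genes kept their call (Slc2a4, Eno3, Ldhb, Fbp2, Phkg1 and Gyg), of all genes 955 were called in place of 2241, and the calls of Aldoa, Pgam2, Ugp2, Pfkfb1, Gys1 and Pgm2 were lost (edgeR adjusted p 0.105, 0.0878, 0.294, 0.0527, 0.215 and 0.174). Under that fit the log2 fold changes of the 6 lost genes lay at -0.47 for Aldoa, -0.55 for Pgam2, -0.26 for Ugp2, -1.61 for Pfkfb1, -0.46 for Gys1 and -0.37 for Pgm2. The summed endothelial level itself averaged 641 CPM in the heterozygote and 468 CPM in the knockout, so this fit cannot fully part it from the genotype. The part of these markers in the results was not tested beyond this.

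Single animals stood high or low in many of the genes. Of the 32 tested genes, heterozygote 2 was the highest heterozygote in 18 and heterozygote 4 the lowest in 22, while knockout 1 was the highest knockout in 19 and knockout 5 the lowest in 16. The summed level of the 33 genes was 21663, 25928, 20416, 17544 and 19752 CPM (heterozygotes 1 to 5) against 19013, 16699, 14917, 15498 and 14174 CPM (knockouts 1 to 5). Knockout 1 reached above heterozygote 4 in this sum, and the other 4 knockouts lay below all heterozygotes. Heterozygote 4 also had the highest sum of endothelial markers (824 CPM) and knockout 5 the lowest (339 CPM). Knockout 1 had the highest sum of cardiomyocyte markers among knockouts, at 118712 CPM.

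Isoform shares relate genes of the same step within an animal and do not depend on library scaling. Each was the percent of length-scaled counts of an enzyme family that belonged to the muscle or heart form, and 8 were compared by exact two-sided permutation tests over 252 arrangements, with the Benjamini-Hochberg method over the 8 and a smallest possible p of 0.00794. The Ldhb share of Ldha plus Ldhb was 54.8%, 54.6%, 53.1%, 53.4% and 55.3% (heterozygotes 1 to 5) against 47.6%, 48.7%, 49.8%, 48.6% and 54.2% (knockouts 1 to 5). Knockout 5 lay within the heterozygote range and the other 4 knockouts below it. The mean difference was -4.46 points (54.2% ± 0.927 against 49.8% ± 2.59, SD, n = 5; exact permutation p 0.0238, adjusted 0.0476). The Pfkm share of the phosphofructokinases was 76.1% ± 1.18 in the heterozygote and 73.0% ± 1.93 in the knockout (SD, n = 5; difference -3.13 points, exact permutation p 0.0238, adjusted 0.0476). The Slc2a4 share of the glucose transporters Slc2a1 and Slc2a4 was 97.2% ± 0.359 and 94.4% ± 2.13 (SD, n = 5; difference -2.80 points, exact permutation p 0.0159, adjusted 0.0476). It was lowest in knockout 1, at 91.6%, the animal with the highest Slc2a1 level. The Eno3 share of the enolases differed by -0.0427 points between means above 99.9% (exact permutation p 0.0238, adjusted 0.0476) and rests on the uncertain counts of Eno1. Pfkp shares exon bases with Pitrm1, and 17.1% of its 50-base windows recur in other transcripts, so the Pfkm share is uncertain as well. The same holds for the Ldhb share, since 27.0% of the windows of Ldhb and 16.6% of those of Ldha recur.

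Leaving out any 1 of the 10 animals raised the adjusted p of each of these 4 shares above 0.05, to between 0.0635 and 0.0952 in exact permutation tests, with the direction kept. The differences then ran from -5.56 to -3.91 points for Ldhb (the widest without knockout 5), from -3.85 to -2.55 points for Pfkm, from -3.47 to -2.08 points for Slc2a4 and from -0.0524 to -0.0340 points for Eno3. The shares of Hk2 (32.6% and 33.5%), Pgam2 (99.1% and 98.9%), Pygm (68.1% and 66.8%) and Aldoa (99.99% in both groups) did not pass (exact permutation, adjusted p 0.626, 0.495, 0.540 and 0.675). The Pgam2 share rests on the uncertain counts of Pgam1. The groups overlapped in all 8 shares.

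**Figure D4:**
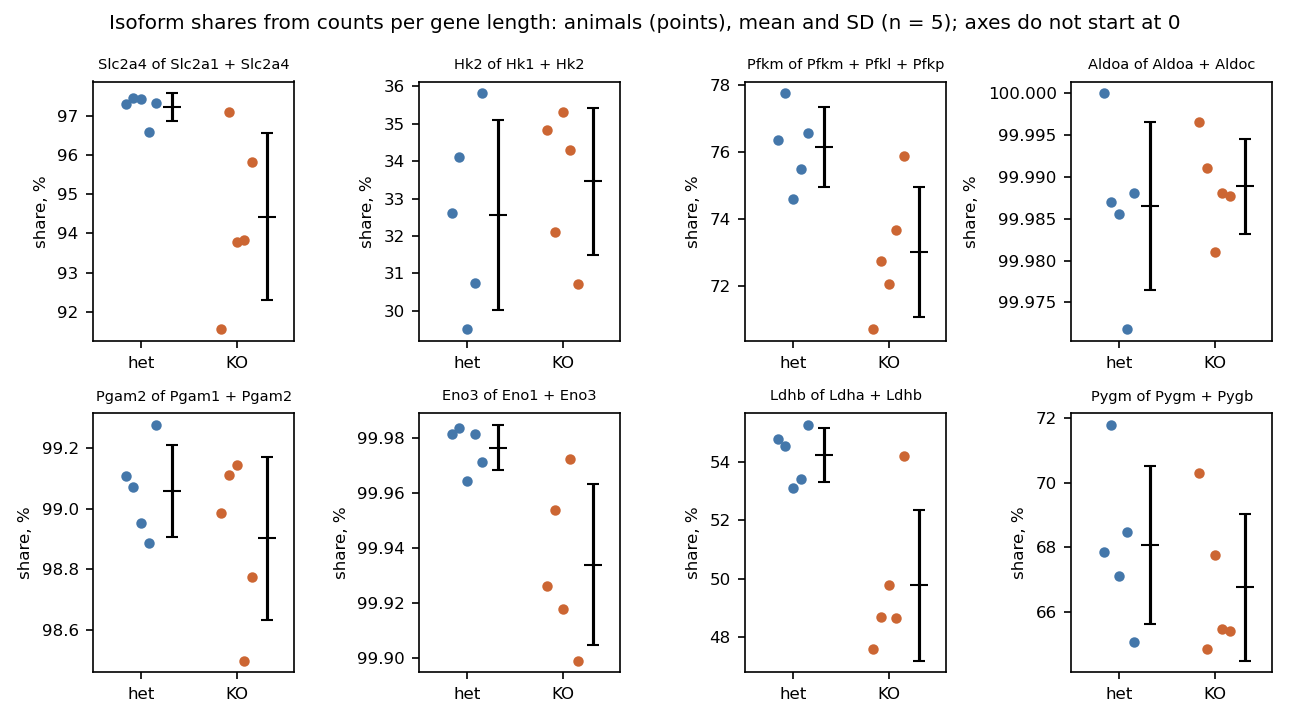
Percent of each enzyme family's length-scaled counts that belong to the named form (y axes, which do not start at 0) in each heterozygote (het) and knockout (KO), with mean and SD (n = 5). In the Ldhb panel knockout 5, at 54.2%, lies among the heterozygotes and the other knockouts lie at 47.6% to 49.8%.

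A further 128 genes of the pathway and its control were found in the table, of which 106 were tested and 30 called, 18 lower and 12 higher (28.3%, with a median log2 fold change of -0.12). Over all tested genes the share called was 18.9%, with 8.64% lower and 10.2% higher. It was 34.5% among the 1681 genes averaging 100 CPM or more, with 333 lower and 247 higher. By list, 8 of 16 tested genes were called for pyruvate and lactate fate, 5 of 14 for glucose uptake and its control, 5 of 15 for the side branches, 9 of 27 for transcription factors and kinases, 1 of 11 for other glycolytic genes and 2 of 23 for other glycogen genes. Of the 16 genes of pyruvate and lactate fate, 6 fell and 2 rose, with a median of -0.44. Bsg, basigin, the chaperone that brings monocarboxylate transporters to the cell surface, was at 1809, 2476, 1976, 1797 and 1921 CPM (heterozygotes 1 to 5) against 1148, 1038, 1087, 1129.6 and 1121 CPM (knockouts 1 to 5). The groups did not overlap, and the log2 fold change was -0.85 (SE 0.0959; adjusted p 3.62e-05 in edgeR). Slc16a3, the lactate transporter MCT4, which basigin carries, rose from a low level, 2.35 ± 0.497 to 5.14 ± 1.79 CPM (SD, n = 5, log2 fold change 1.15, edgeR adjusted p 0.00759). Mdh1 and Got1, the cytosolic enzymes of the malate-aspartate shuttle, fell from 4464 ± 155 to 3255 ± 245 CPM and from 766 ± 104 to 477 ± 90.3 CPM (SD, n = 5, edgeR adjusted p 0.000966 and 0.00235). Me1, the cytosolic malic enzyme, fell from 143 ± 16.9 to 97.7 ± 5.10 CPM (edgeR adjusted p 0.00117). Of the kinases that switch off pyruvate dehydrogenase, Pdk2 fell from 625 ± 71.9 to 437 ± 25.3 CPM and Pdk3 rose from 14.7 ± 2.78 to 25.3 ± 5.19 CPM (edgeR adjusted p 0.00164 and 0.00444). Pdp2, a phosphatase that switches it on, fell with a log2 fold change of -1.10 (edgeR adjusted p 0.0148). Pkm2, the symbol under which pyruvate kinase is listed, was at 1614 ± 324 CPM in heterozygotes and 1238 ± 195 CPM in knockouts (SD, n = 5) and was not called (log2 fold change -0.38, edgeR adjusted p 0.0707), except without heterozygote 4 or knockout 1 (edgeR adjusted p 0.0279 and 0.0498), with DESeq2 (adjusted p 0.0381) and with the replicate number as a block (edgeR adjusted p 0.0265).

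Among 14 tested genes of insulin signalling and glucose uptake, 3 fell and 2 rose. Grb10, an adaptor that restrains the insulin receptor, was at 296, 221, 269, 262 and 257 CPM (heterozygotes 1 to 5) against 536, 589.9, 506, 481 and 558 CPM (knockouts 1 to 5). Every knockout lay far above the heterozygotes, and its log2 fold change of 1.03 (SE 0.0957; adjusted p 7.11e-06 in edgeR) had the lowest adjusted p of the 106. Irs1, the insulin receptor substrate, rose from 103 ± 16.2 to 170.5 ± 16.7 CPM (SD, n = 5, edgeR adjusted p 0.000812). Akt1, a kinase downstream of it, fell from 309 ± 85.4 to 190.0 ± 19.6 CPM, with overlap of the groups (edgeR adjusted p 0.00619). The transporter Slc2a12 and Tbc1d4, which governs the release of GLUT4 vesicles, also fell (log2 fold changes -0.70 and -0.40, edgeR adjusted p 0.0160 and 0.0225). Tbc1d4 was not called without heterozygote 5, knockout 1 or knockout 3 (edgeR adjusted p 0.0593 to 0.0636).

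Of 27 transcription factors and kinases known to act on the pathway, 4 fell and 5 rose. Egln3 and Egln1, oxygen-dependent hydroxylases of the hypoxia-inducible factors, fell from 66.95 ± 7.96 to 29.7 ± 7.15 CPM and from 94.95 ± 13.5 to 65.8 ± 6.88 CPM (SD, n = 5, edgeR adjusted p 0.000140 and 0.00466). Epas1, one of these factors, fell from 156 ± 21.2 to 102 ± 18.6 CPM, while Hif1a, another, rose from 224 ± 53.3 to 328 ± 22.3 CPM (SD, n = 5, log2 fold changes -0.62 and 0.55, edgeR adjusted p 0.00455 and 0.0154). With the endothelial covariate their log2 fold changes were -0.58 and 0.50, without a call (edgeR adjusted p 0.0667 and 0.142). Subunits of AMP-activated kinase moved apart: Prkab1 fell from 75.97 ± 6.31 to 55.6 ± 2.99 CPM and Prkag3 rose from 7.60 ± 4.59 to 19.05 ± 5.76 CPM (SD, n = 5, edgeR adjusted p 0.00241 and 0.00983). Six4, Esrrg and Mlx were called higher (log2 fold changes 1.10, 0.39 and 0.31), but the calls of Esrrg and Mlx were each lost in 8 of the 10 fits without 1 animal (edgeR adjusted p 0.0541 to 0.105 and 0.0625 to 0.124).

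Among 15 tested genes of the pentose phosphate, hexosamine and polyol branches, 3 fell and 2 rose. Sord, sorbitol dehydrogenase, fell from 187 ± 9.73 to 98.2 ± 16.97 CPM without overlap of the groups (SD, n = 5, log2 fold change -0.92, edgeR adjusted p 8.04e-05). Uap1 and Pgls were also called lower (-0.31 and -0.49), and Mgea5, which removes sugar tags from proteins, and Gnpnat1 higher (0.39 and 0.42). Without single animals these calls were lost for Uap1 (without heterozygote 5 or knockout 3, edgeR adjusted p 0.0516 to 0.0610), for Mgea5 (without knockout 3, edgeR adjusted p 0.0503), for Gnpnat1 in 5 of 10 fits (edgeR adjusted p 0.0604 to 0.0786) and for Pgls in 7 of 10 (edgeR adjusted p 0.0627 to 0.114). Of 23 other glycogen genes, Ppp1r3c, which targets a phosphatase to glycogen, fell from 97.9 ± 26.6 to 61.02 ± 6.39 CPM (SD, n = 5, edgeR adjusted p 0.00740) and Pgm5 rose (log2 fold change 0.43, edgeR adjusted p 0.0183). Whether Pgm5 acts on glycogen in these cells was not tested. Of 11 other glycolytic and gluconeogenic genes only G6pc3, a glucose phosphatase, was called, lower (-0.41, edgeR adjusted p 0.0469), and that call was lost in 9 of 10 fits without 1 animal (edgeR adjusted p 0.0527 to 0.108).

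With the endothelial covariate, 17 of the 30 called genes of these lists lost their call, without a change of direction. Among them were Slc16a3 (log2 fold change 1.15 without and 1.20 with the covariate), Prkag3 (1.34 and 1.52), Pdp2 (-1.10 and -0.98), Six4 (1.10 and 0.75), Slc2a12 (-0.70 and -0.53), Ppp1r3c (-0.68 and -0.61) and Pgm5 (0.43 and 0.39). The calls of Esrrg and Mlx were also lost with RLE and with upper-quartile scaling, and those of Tbc1d4, G6pc3, Pgls and Uap1 with total-count scaling.

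**Figure D5:**
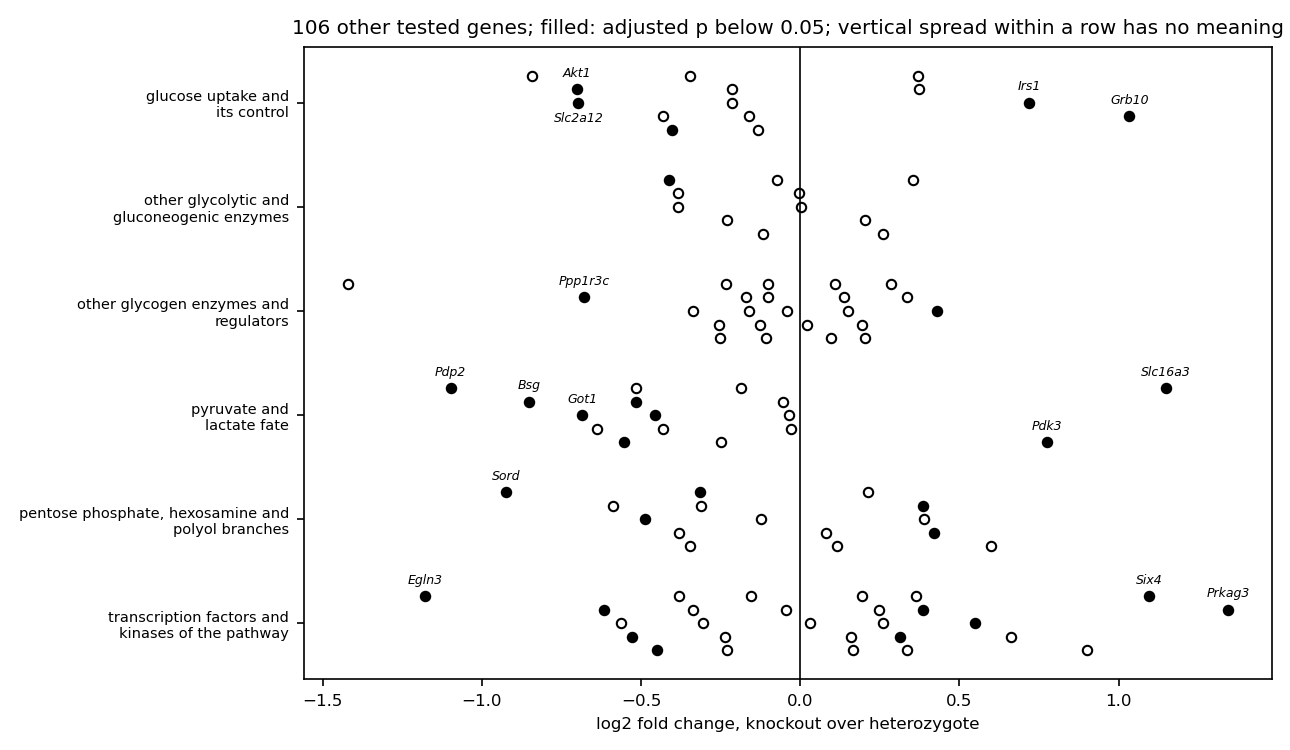
Log2 fold change of the knockout over the heterozygote (x axis) for the 106 other tested genes, with a row for each list (y axis) and filled points for the 30 called genes. Calls lie on both sides of 0, and the row of pyruvate and lactate fate holds 6 filled points to the left and 2 to the right.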

How the data were processed

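RNA of FACS-sorted cardiomyocytes (10 ng of total RNA, cDNA amplified by 8 PCR cycles, 500 pg of cDNA per library, per the labels' protocols) was sequenced from 5 Actn2 knockouts and 5 heterozygotes. The authors deposited whole-number counts of reads per gene and each gene's exon length, made, per the file headers, with featureCounts 1.5.1 (4 threads, no other option) on a UCSC annotation of mm10 from a 2012 archive. The submitters' processing notes list STAR 2.5.3a, Subread 1.5.2 and CASAVA 1.8, while the alignment names in the header are another aligner's default, so the aligner is uncertain. By that program's default, counting used no strand. Of the table's count columns, 4 match no sample and were not used. All 20 pairs of replicates differed beyond sampling noise, with a chi-square of 10.8 to 37.5 for each degree of freedom, so no library appears to be present in 2 copies.

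Genes were filtered (filterByExpr, minimum count 10, minimum total 15), scaled with TMM factors and tested with the quasi-likelihood F test of edgeR (version 4.0.16, with limma 3.58.1 and R 4.3.3) over all 10 samples without covariates, with Benjamini-Hochberg adjustment over 11870 genes and a threshold of 0.05. The standard error is the log2 fold change divided by the square root of F. The procedure was tested on simulated data. Windows of 50 bases were compared among GENCODE transcripts, and promoters are those of RefSeq. Isoform shares were tested by exact permutation (scipy 1.17.1). Alternatives were RLE, upper-quartile and total-count scaling, filters, DESeq2 1.42.0, a replicate block, an endothelial covariate, thinning to the smallest library and leaving out each animal. Per-sample values are given for genes that were called or whose groups did not overlap. Of the other pathway genes the called ones are named, the 12 with the lowest adjusted p with their levels, and levels of further ones were added after their values were seen. The genes, lists and tests were chosen with earlier results of these data known.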

Additional observations from a re-analysis of the deposited data

Results flagged for a closer look

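In 84 groups of 5 animals, the gap between the highest or lowest value and its neighbour was divided by the range of the group, and 5 groups were above the limit of 0.71. Chance gives about 1 in 20, or 4.2 of 84. Pgam2 was at 10.56 in heterozygote 2 on the log2(CPM + 1) scale, against 10.07 in the next heterozygote (ratio 0.731). Ldha in the same animal was at 11.13, against 10.90 in the next (ratio 0.721). Ldhb was at 10.31 in knockout 1, against 10.10 in the next knockout (ratio 0.756). The Slc2a4 share was 96.6% in heterozygote 4, with the next heterozygote at 97.3% (ratio 0.819). The total count was 25237696 in heterozygote 1, against 10309615 in the next heterozygote (ratio 0.870).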

How the results depend on the processing

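Of the 12 called genes, 6 (Slc2a4, Eno3, Ldhb, Fbp2, Gyg and Phkg1) kept direction and call in all 19 alternatives, and the other 6 lost the call in 1 or more of them, without a change of direction. Of 603 combinations of gene and alternative, 23 lost a call, 5 gained a call and 11 changed sign. The endothelial covariate moved the calls most, to 955 of all genes and 6 of the 32, all 6 shared with the 12, and the cause was not tested. Total-count scaling raised the share of calls that were higher from 54.3% to 68.9% of 2444 genes and moved the median log2 fold change of all genes to 0.08. Leaving out 1 animal gave 1699 to 2258 called genes and 9 to 14 called genes of the 32. Signs changed, with no call on either side, for Hk1 (0.00707) and Hk2 (0.0668) with total-count scaling, for Pfkfb3 (0.399) and Pfkfb4 (0.156) with the endothelial covariate, and in fits without single animals for Hk2 (-0.0985 to 0.0382 over the 10 fits, positive in 5), for Pfkfb3 (-0.474 to 0.0226, positive without heterozygote 3) and for Slc2a1 (-0.00712 to 0.445, negative without knockout 1). Leaving out any 1 animal ended the calls of 4 share differences, which ranged from -3.47 to -2.08 points for Slc2a4, from -3.85 to -2.55 for Pfkm, from -0.0524 to -0.0340 for Eno3 and from -5.56 to -3.91 for Ldhb. With fewer animals there are fewer arrangements, and so a higher smallest p. The Aldoa share difference ranged from -0.00127 to 0.00577 points, negative without heterozygote 4. Shares without division by gene length gave the same calls.

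Same-numbered animals of the groups were not paired by the labels, and their deviations from the group means correlated at -0.05 to 0.22, above 0.1 in 3 of 5 pairs and below 0 in the other 2. Since not every pair was above 0.1, the numbers were not taken to pair the animals. With the replicate number as a block 2182 genes and 13 of the 32 were called, Gapdh being the gene added (edgeR adjusted p 0.0273). Of the other pathway genes named, Pkm2 gained a call (0.0265), and Uap1 (0.0543), Pgls (0.0665), Gnpnat1 (0.0639), Mlx (0.0779) and Esrrg (0.0595) lost theirs.

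The number of reads limits Aldoc, Eno1, Pfkfb1, Pfkfb3 and Pfkfb4, which had few counts per library.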
